A study of Mus musculus with 12 samples.

Results

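Extinction of conditioned fear was examined as the contrast of the E group with the control group, 3 libraries against 3 out of the 12 libraries of the series, taken by their group labels alone. Each library came from the basolateral amygdala of 1 male C57BL/6J mouse aged 10 weeks, without any transgene, dissected on ice from a coronal slice after isoflurane. Mice of the E group were conditioned with a tone that ended in a foot shock, and on the following day heard the tone repeatedly without shock in a different chamber, in a pair of sessions, and were sampled an hour after the last of them. Control mice went through the conditioning session with the tone but without shock and were sampled together with the conditioned mice of the F group. Foot shock, fear conditioning, handling day, number of sessions and extinction therefore cannot be told apart in E against control. The F group (conditioned, no extinction) and the RE group (extinction after a brief reminder of the tone) enter below only where E was set beside them for a gene already described. The same ribosomal RNA-depleted, strand-marking libraries gave mRNAs, lncRNAs (long RNAs that encode no known protein) and circRNAs (RNAs closed into a ring by back-splicing).

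The basolateral amygdala receives the tone and the shock and stores their association through its glutamatergic principal neurons, which are held in check by local GABAergic interneurons. Extinction is known as new learning that suppresses the fear response without erasing it. A stressful session also releases glucocorticoid hormone into the blood, and the hormone crosses into the brain, where its receptor is a transcription factor present in neurons, glia and the cells of blood vessels. The vessels of the brain are built of endothelial cells, whose tight junctions and transporters form the blood-brain barrier, wrapped by pericytes and, in arterioles, by smooth muscle. The contrast asks which RNAs accompany extinction, and genes are taken below in the order of these roles.

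The 6 libraries held an estimated 7653905 (E 1) to 23167340 (control 1) mRNA fragments and between 7324 and 23446 back-splice junction reads. In a principal component analysis of the lncRNA levels, 4 of the 12 libraries stood apart on the first component, which held 18.35% of the variance. These were control 2, E 2, F 1 and RE 4, at 46.42 to 68.05 against -30.97 to -21.39 in the other 8, and 1 of them fell in each group. Control 2 also differed in marker levels. Summed markers of striatal spiny neurons reached 420 FPKM in it against 1729 and 991 in control 1 and 3, and Ttr, a transporter protein made by the choroid plexus, reached 229.6 FPKM against 2.84 and 3.00, beside 55.0 in E 2 and 45.85 in F 1. Results are therefore given with and without these libraries where that moves them. Markers fixed for the basolateral amygdala were present in every library, with Lmo3 at 95.8 to 144 FPKM and Otof at 11.4 to 19.2, whereas Rspo2 stayed at or below 3.02 FPKM.

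No mRNA passed an adjusted p under 0.05 (Benjamini-Hochberg over 13517 genes, limma on log2(FPKM + 0.1), FPKM being fragments scaled to transcript length and library size), a share of 0%, and the smallest adjusted p was 0.0506. At an unadjusted p under 0.05 there were 693 genes, 511 higher in E (3.78% of genes tested) and 182 lower (1.35%). edgeR on the estimated fragments called 5 genes at an adjusted p under 0.05, namely Rgs5, Ptprb, Hif3a, Flt1 and Abcb1a, all higher in E. The thresholds of the study, an unadjusted p under 0.05 with at least a doubling or halving of the level, were met by 61 genes higher in E (0.451%) and 15 lower (0.111%). With scaling by quantiles these counts were 54 and 37, and with a shift to a common median 53 and 23, so the size of the excess of higher genes depended on the scaling. Without control 1 the counts were 118 and 49, and the lower count was 30 without E 1 or E 2 and 37 without E 3. Genes with no overlap between the 3 E and the 3 control libraries numbered 1007 higher (7.45%) and 408 lower (3.02%), and over all genes tested 57.02% were higher in E, with a median log2 fold change of 0.03. Of the 61 higher genes, 50 did not overlap, 40 kept an unadjusted p under 0.05 whichever library was left out, and 49 had one among the 8 libraries left without the 4 that stood apart, where all 61 had the same sign. Of the 15 lower genes the counts were 15, 8 and 11, again with all 15 of the same sign. Both sets were picked by p and fold change in a fit that holds these same libraries. Their kept signs and p-values are therefore no independent evidence. "Higher" and "lower" are used below in place of any firmer word, since the adjusted threshold was not met.

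The gene with the smallest p was Rgs5, a regulator of G protein signalling that marks pericytes and arteriolar smooth muscle. Its level was 12.1, 15.5 and 13.7 FPKM in control 1, 2 and 3 and 24.3, 26.75 and 24.03 FPKM in E 1, 2 and 3 (log2 fold change 0.86 ± 0.11, SE, adjusted p = 0.0506 by limma). The 3 E libraries lay close together and well above all controls. The adjusted p of Rgs5 ran from 0.00966 to 0.343 over the 18 settings fitted and was under 0.05 in 5 of them. Sgk1, a kinase induced by glucocorticoid that acts on ion channels and transporters, stood at 37.05, 25.8 and 26.2 FPKM in the control group and 64.1, 84.7 and 74.04 FPKM in the E group (1.33 ± 0.19, adjusted p = 0.0506). Hif3a, a member of the hypoxia-inducible factor family that glucocorticoid also induces, stood at 1.304, 1.26 and 0.988 against 3.27, 4.33 and 6.06 FPKM (1.82 ± 0.29, adjusted p = 0.0696). Neither gene overlapped between the groups, and E 1, the library with the fewest fragments, had the lowest E value of both. Over the settings the adjusted p ran from 0.0489 to 0.357 for Sgk1 and from 0.0219 to 0.358 for Hif3a, and each was under 0.05 in 1 of 18.

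**Figure D1:**
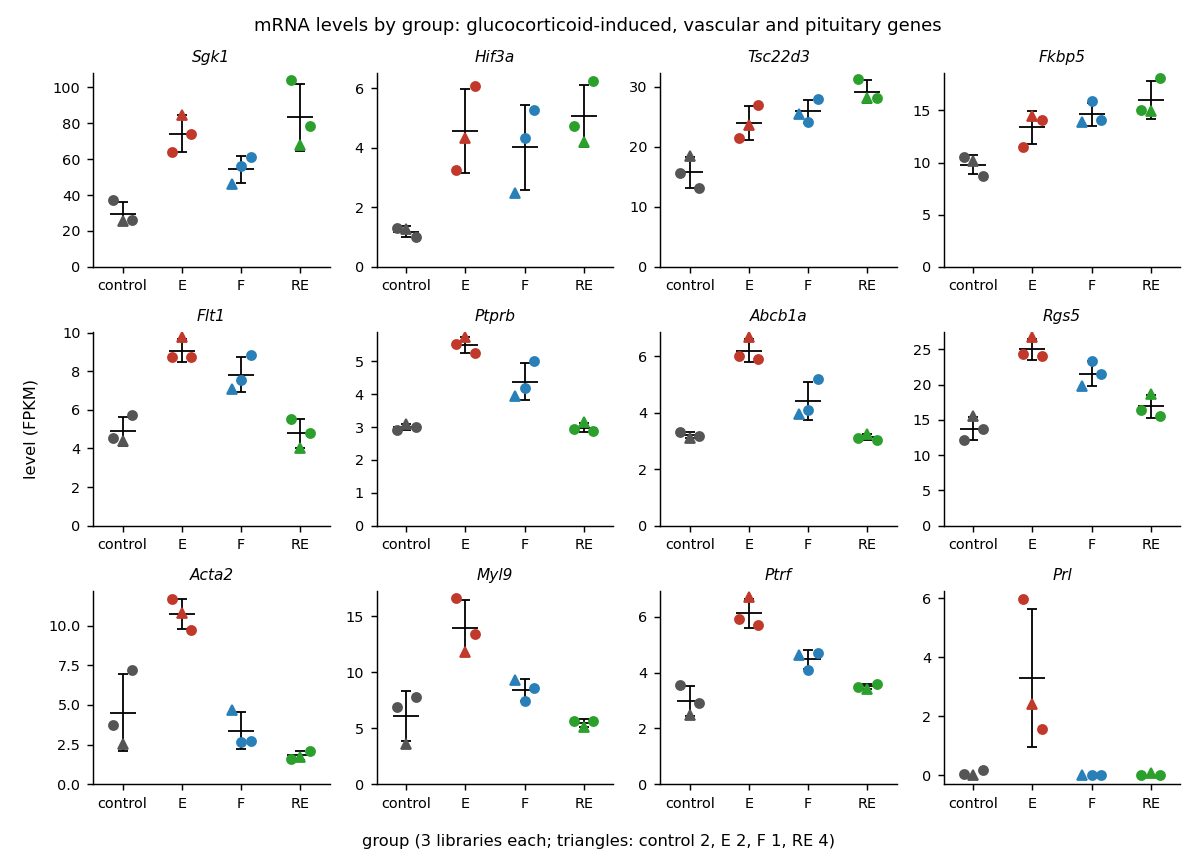
mRNA level (FPKM, linear axis) of 12 genes in the 12 libraries by group, with points for libraries, triangles for the libraries that stood apart, and bars for mean and SD, left out where a library was listed at 0. In all 12 panels the 3 E libraries lay above the 3 controls (Rgs5, 24.0 to 26.8 FPKM against 12.1 to 15.5), and in RE the means of the vascular genes from Flt1 to Ptrf were lower than in E while those of Sgk1, Hif3a, Tsc22d3 and Fkbp5 were not.

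Endothelial genes formed a broad group on the higher side. Counts of list members here and below are to be read beside the shares over all genes tested. Of all genes, 57.02% were higher in E, 3.78% were higher at an unadjusted p under 0.05 and 7.45% were higher without overlap. Lower at that p were 1.35%, and lower without overlap 3.02%. Of 18 markers of endothelial identity 16 were higher in E, 8 of them at an unadjusted p under 0.05 and none lower at that p, and 7 did not overlap. Their median log2 fold change was 0.51, against 0.03 over all genes, and it ranged from 0.38 to 0.65 as single libraries were left out and was 0.31 without the 4 libraries that stood apart. The markers summed to 77.9, 77.6 and 76.1 FPKM in the control group and 104, 133 and 106 FPKM in the E group. The sums were nearly equal among controls, and E 2 was the highest. Eltd1, an adhesion receptor of vessel sprouts, stood at 2.91, 3.35 and 1.96 FPKM in controls and 9.065, 7.025 and 5.67 in E (1.38 ± 0.21, adjusted p = 0.06355). Gpr116, another adhesion receptor of endothelium, stood at 2.11, 2.19 and 2.15 against 3.92, 4.28 and 3.575 FPKM (0.84 ± 0.16), and the control values were nearly the same in all 3 mice. Vwf, the clotting factor stored in endothelial granules, stood at 2.04, 1.48 and 1.54 against 3.35, 6.303 and 3.802 FPKM (1.32 ± 0.29), with E 2 far above the other E libraries. Ly6c1 stood at 11.3, 12.9 and 9.205 against 16.5, 23.1 and 19.6 FPKM (0.82 ± 0.15). Cd34, a surface sialomucin, stood at 4.401, 4.02 and 4.504 against 6.275, 8.38 and 8.34 FPKM (0.81 ± 0.16). Not all markers shared the difference, since Cldn5, the main claudin of the barrier, stood at 5.18, 7.795 and 6.03 against 8.02, 9.92 and 5.89 FPKM, Egfl7 differed by 0.12 and Ocln by -0.04 on the log2 scale, and Plvap, of fenestrated vessels, by -0.51.

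Of 10 receptors through which endothelial cells sense growth factors 9 were higher, 4 of them at an unadjusted p under 0.05 and none lower at it, with a median log2 fold change of 0.48 (0.60 without the 4 libraries). Flt1, the VEGF receptor that binds and retains the ligand, stood at 4.55, 4.37 and 5.72 FPKM in controls and 8.75, 9.76 and 8.72 in E (0.89 ± 0.15, adjusted p = 0.126). Ptprb, the phosphatase that restrains the angiopoietin receptor, stood at 2.896, 3.09 and 3.005 against 5.535, 5.74 and 5.26 FPKM (0.86 ± 0.13, adjusted p = 0.06355). Values of Ptprb varied little within either group. Tek, the angiopoietin receptor itself, stood at 1.77, 1.63 and 1.87 against 2.77, 3.84 and 2.68 FPKM (0.77 ± 0.21), and its relative Tie1 at 0.544, 0.9002 and 0.7203 against 1.06, 1.95 and 1.33 FPKM (0.90 ± 0.34). Over the settings the adjusted p ran from 0.0231 to 0.581 for Flt1 and from 0.0145 to 0.524 for Ptprb, each under 0.05 in 1 of 18. Among 9 ligands that act on vessels 4 were higher and 5 lower, none at an unadjusted p under 0.05 in either direction, with a median of -0.003. The 2 without overlap, both higher, were Apln (apelin, 0.38 on the log2 scale) and Jag1 (a Notch ligand, 0.38), which are neither VEGFs nor angiopoietins. Vegfa was at 37.9, 21.1 and 33.85 FPKM in controls and 31.4, 32.7 and 26.2 in E.

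Transporters of the blood-brain barrier were higher in 11 of 14 cases, 4 of them at an unadjusted p under 0.05, with a median of 0.24 (0.14 without E 2, 0.15 without control 1). Abcb1a, the P-glycoprotein that pumps drugs and steroids back into the blood, stood at 3.31, 3.11 and 3.18 FPKM in controls and 6.002, 6.67 and 5.9 in E (0.93 ± 0.14, adjusted p = 0.0526, 0.0252 to 0.524 over the settings). Slc2a1, the glucose transporter of the barrier, stood at 11.3, 15.3 and 9.925 against 15.6, 25.9 and 20.2 FPKM (0.75 ± 0.19), and its lowest E value was just above the highest control. Abcc4, a pump for organic anions, stood at 1.56, 1.53 and 1.79 against 2.17, 2.66 and 2.63 FPKM (0.58 ± 0.15). Among transcription factors of the endothelium 10 of 11 were higher, 4 of them at an unadjusted p under 0.05, with a median of 0.61 (0.40 without E 2 and 0.37 without the 4 libraries). Sox17, which drives arterial identity, stood at 0.336, 0.155 and 0.344 against 0.455, 0.818 and 1.16 FPKM (1.24 ± 0.40), and Sox18 at 0.844, 0.687 and 1.03 against 1.635, 2.803 and 1.135 (0.96 ± 0.31). Sox17 reached the filter, a mean of 0.5 FPKM over the 12 libraries, only through the E libraries. Its higher level in E, counted among the 10 and the 4, is therefore no support for a difference. Erg differed by 0.67 ± 0.23 and Klf4, a factor that responds to flow, by 0.75 ± 0.30. These factors had low levels, and E 2 held the highest value of Sox18, Erg and Klf4.

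Cells around the vessel followed unevenly. All 8 measured markers of vascular smooth muscle were higher, 4 at an unadjusted p under 0.05, and 6 did not overlap. Over all genes tested these shares were 57.02%, 3.78% and 7.45%. The median of the smooth muscle markers was 1.14, but it was 0.66 without control 2 and 0.87 without all 4 libraries that stood apart. Acta2, the smooth muscle actin, stood at 3.76, 2.56 and 7.23 FPKM in controls and 11.65, 10.8 and 9.75 in E (1.36 ± 0.32, adjusted p = 0.521). Myh11, the smooth muscle myosin heavy chain, stood at 0.862, 0.3903 and 1.199 against 2.74, 2.16 and 1.72 FPKM (1.42 ± 0.35). Myl9, a myosin light chain, stood at 6.89, 3.603 and 7.804 against 16.65, 11.8 and 13.45 FPKM (1.24 ± 0.24), and Tagln, an actin-binding protein, at 2.93, 1.45 and 5.31 against 6.403, 5.704 and 7.37 FPKM (1.16 ± 0.34). In all 4 genes control 2 was the lowest and the groups did not overlap. Pericyte markers were less uniform: 10 of 14 were higher with a median of 0.21 (0.06 without control 1, 0.07 without control 2 and 0.09 without E 2), and Rgs5 alone had an unadjusted p under 0.05. Pdgfrb, the growth factor receptor that defines pericytes, was at 4.05, 3.85 and 3.76 against 3.89, 4.12 and 4.29 FPKM. Of 10 caveola genes 8 were higher and 2 had an unadjusted p under 0.05. Ptrf, the coat protein that shapes caveolae, stood at 3.54, 2.48 and 2.91 against 5.94, 6.72 and 5.72 FPKM (1.03 ± 0.15, adjusted p = 0.0526, 0.0516 to 0.521 over the settings), and its partner Sdpr at 2.17, 2.05 and 1.85 against 3.13, 3.045 and 2.555 (0.50 ± 0.17).

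Blood content, other tissue and vessel-associated connective tissue were read beside these genes. Of a red cell list of 4 hemoglobin genes and Alas2, the first enzyme of heme synthesis in red cell precursors, 2 were higher (Alas2 by 0.76 and Hbb-bt by 0.09 on the log2 scale), 3 were lower and none had an unadjusted p under 0.05. The 5 genes summed to 117, 93.0 and 105 FPKM in the control group and 78.3, 157 and 72.5 in the E group, so only E 2 held more than the controls. Markers of meningeal and vascular fibroblasts were higher in 15 of 16 cases, 2 at an unadjusted p under 0.05, with a median of 0.64 that was 0.19 without control 2. Fn1, the matrix protein fibronectin, stood at 8.07, 2.63 and 5.03 against 9.703, 9.91 and 10.1 FPKM (1.04 ± 0.31), and Mgp, an inhibitor of calcification, at 19.7, 5.75 and 15.3 against 28.1, 21.6 and 29.3 FPKM (1.11 ± 0.36). Summed levels of the fibroblast list were 123, 85.8 and 103 FPKM in controls and 131, 133 and 152.5 in E. The part of connective tissue in the vascular difference was not tested. In pieces of tissue, more cells of a type and more RNA per cell cannot be told apart, and this holds for every cell type below.

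**Figure D2:**
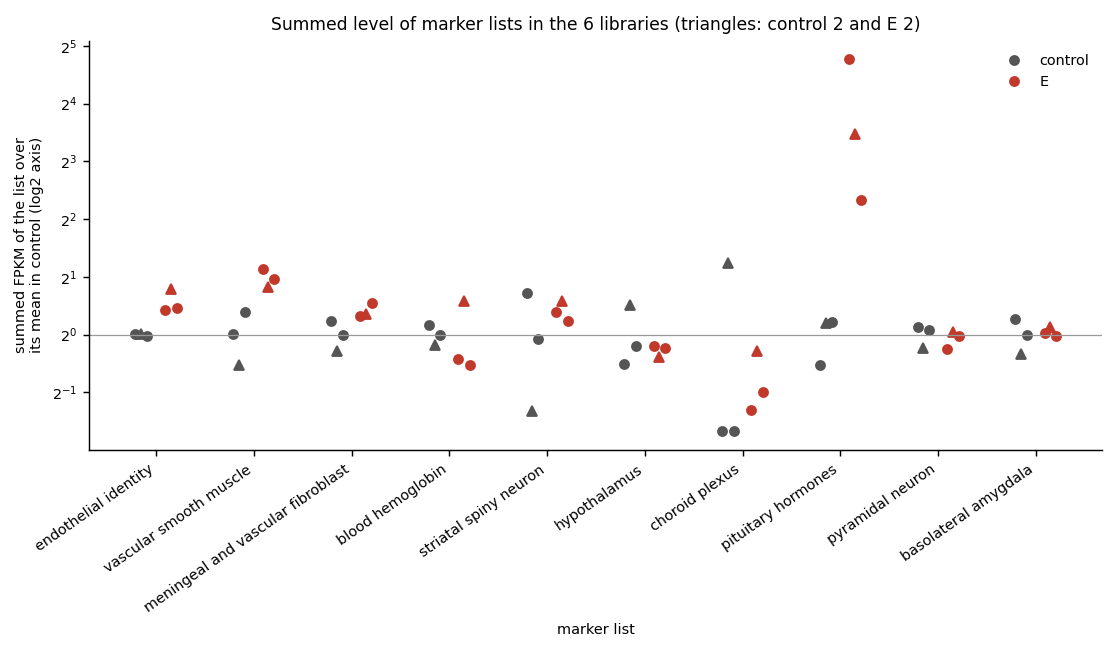
Summed FPKM of the members of 10 marker lists in each of the 6 libraries, divided by the mean of the 3 controls, on a log2 axis, with triangles for control 2 and E 2. Endothelial sums of the E libraries (104 to 133 FPKM) lay above those of the controls (76.1 to 77.9), and control 2 was the lowest in the striatal list and the highest in the choroid plexus list.

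The other trained groups were set beside E for these vascular genes, in contrasts that share the E libraries with the one above. The genes were named for high values in those E libraries, and the adjusted p does not account for that choice. A pass of RE below E is therefore no independent support. Ptprb averaged 4.38 ± 0.565 FPKM in F and 2.99 ± 0.151 in RE, and RE was below E (adjusted p = 0.0361) while the difference of E and F did not pass (adjusted p = 0.382). Abcb1a averaged 4.41 ± 0.666 FPKM in F and 3.14 ± 0.104 in RE (RE below E, adjusted p = 0.03297, F against E 0.185). For Flt1 the means were 7.83 ± 0.913 in F and 4.78 ± 0.745 in RE (adjusted p = 0.0361 for RE below E and 0.699 for F). RE below E also passed in 6 more genes named above, at an adjusted p of 0.0404 for Eltd1, 0.0423 for Ptrf, 0.03998 for Myl9, 0.01315 for Acta2, 0.0361 for Myh11 and 0.0361 for Tagln. It did not pass for Rgs5 (adjusted p = 0.0536), Tek (0.103), Gpr116 (0.119), Ly6c1 (0.273), Tie1 (0.312), Vwf (0.368), Sdpr (0.385), Slc2a1 (0.818), Abcc4 (0.975) or the transcription factors Sox18, Erg, Klf4 and Sox17 (0.319 to 0.723). No difference of E and F passed in any of these genes (adjusted p from 0.07265 to 0.964). F means lay above control means for Ptprb, Abcb1a and Flt1 but below them for Acta2 (3.38 ± 1.15 FPKM in F) and Tagln (2.09 ± 0.1401). Smooth muscle markers summed to 21.2 to 24.3 FPKM in F and 14.05 to 17.45 in RE, beside 40.8 to 50.2 in E and 15.8 to 30.02 in controls. Endothelial identity markers summed to 98.1 to 106 FPKM in F and 82.6 to 106 in RE. Cd34 averaged 9.67 ± 1.75 FPKM in F and 12.95 ± 1.365 in RE beside 6.275, 8.38 and 8.34 in E, a difference of RE and E that did not pass either (adjusted p = 0.06425).

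Genes induced by glucocorticoid were also on the higher side. Of 27 tested 23 were higher, 11 of them at an unadjusted p under 0.05 and none lower at it, and 9 did not overlap. The median log2 fold change was 0.36, with 0.30 to 0.42 as single libraries were left out and 0.29 without the 4 libraries. Tsc22d3, which encodes the leucine zipper protein GILZ, stood at 15.65, 18.4 and 13.2 FPKM in controls and 21.4, 23.6 and 27.01 in E (0.61 ± 0.13, adjusted p = 0.336). Fkbp5, the co-chaperone that dampens the glucocorticoid receptor, stood at 10.5, 10.15 and 8.75 against 11.5, 14.5 and 14.1 FPKM (0.44 ± 0.13, adjusted p = 0.834). Their groups did not overlap, though E 1 was only slightly above the highest control for Fkbp5. The other members at an unadjusted p under 0.05, besides Sgk1 and Hif3a, were Plin4 (1.34), Arrdc2 (0.73), Zbtb16 (0.62), Klf9 (0.53), Nfkbia (0.41), Errfi1 (0.37) and Mertk (0.35), with log2 fold changes in brackets and named for their p after the values were seen. Klf9, a factor of hormone response, stood at 49.3, 26.0 and 36.6 FPKM in controls against 49.4, 52.4 and 54.4 in E, with E 1 almost level with control 1. The receptors that sense stress hormones and their chaperones did not share the difference, with 5 of 11 higher, 6 lower, none at an unadjusted p under 0.05 and a median of -0.06.

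The F and RE means of the leading glucocorticoid genes also lay above every control library. Sgk1 averaged 54.5 ± 7.46 FPKM in F and 83.4 ± 18.6 in RE beside 74.3 ± 10.3 in E, Hif3a 4.02 ± 1.43 and 5.065 ± 1.05 beside 4.55 ± 1.41, and Tsc22d3 25.9 ± 1.93 and 29.2 ± 1.855 beside 24.01 ± 2.82. No contrast of E with F or of RE with E passed for Sgk1, Hif3a, Tsc22d3 or Fkbp5 (adjusted p from 0.404 to 0.928). The sums of the list were 559, 467 and 475 FPKM in controls, 562, 614.5 and 641 in E, 544 to 637 in F and 609 to 846 in RE. Control 1 thus reached the level of E 1. A gene outside the naming rule, Xdh (xanthine dehydrogenase, a purine-degrading enzyme), was picked after its values were seen because it had the smallest p of the 61 outside the rule: 0.1397, 0.225 and 0.119 FPKM in controls, 0.588, 0.888 and 1.25 in E. Genes that respond to low oxygen showed little beyond Hif3a and Slc2a1, since 12 of 17 were higher, those alone had an unadjusted p under 0.05, and the median was 0.08. Of 18 heat shock genes 15 were higher, and 2 genes of small heat shock proteins had an unadjusted p under 0.05, Hspb1 (1.37, 1.995 and 1.61 against 4.17, 3.53 and 3.17 FPKM, 1.09 ± 0.30) and Hspb8 (5.415, 5.285 and 4.39 against 6.02, 8.05 and 6.62, 0.44 ± 0.15).

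**Figure D3:**
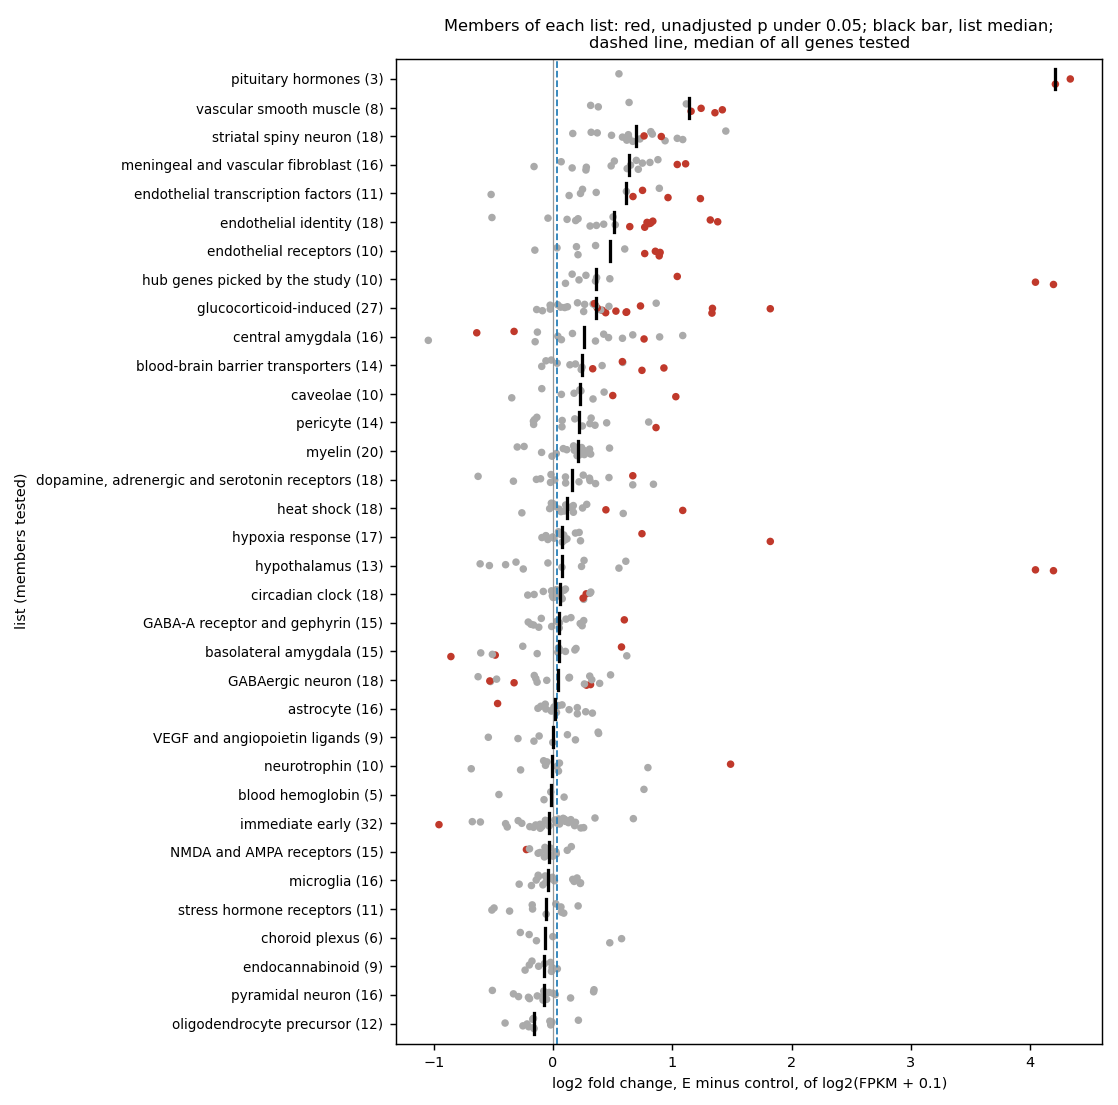
Log2 fold change (E minus control) of every tested member of 34 gene lists, with red for an unadjusted p under 0.05, a black bar for the list median and a dashed line for the median of all genes (0.03). The endothelial, mural, caveola, fibroblast and glucocorticoid lists have medians from 0.21 to 1.14 with red points on the right only, while most neuronal and glial lists have medians near 0. Exceptions among the latter are the striatal, central amygdala and myelin lists, with medians of 0.70, 0.26 and 0.21.

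The largest fold changes of the 61 higher genes were those of 2 pituitary hormones. Prl, prolactin, stood at 0.0477, 0 and 0.168 FPKM in controls and 5.96, 2.41 and 1.56 in E (4.21 ± 0.58 on the log2(FPKM + 0.1) scale, adjusted p = 0.0506, 0.0374 to 0.357 over the settings and under 0.05 in 2 of 17). Gh, growth hormone, stood at 0.193, 0.672 and 0.683 against 28.5, 10.9 and 4.53 FPKM (4.34 ± 1.10, adjusted p = 0.605). In both hormones E 1 was the highest and E 3 the lowest, and every E library was above every control. Prl was at 0 in all F libraries and at most 0.0813 FPKM in RE. Both genes reached the filter, a mean of 0.5 FPKM over the 12 libraries, only through the E libraries, so that a difference had to appear and their p-values are no support for one. Of the 11 pituitary genes 3 passed the filter. Pomc, the third, was at 0.442, 0.556 and 0.708 FPKM in controls and 1.59, 1.55 and 0.226 in E. The hormone subunits Cga, Tshb, Lhb and Fshb, the transcription factors Pou1f1 and Pitx1 and the receptor Ghrhr reached at most 0.25 FPKM in any of the 6 libraries, and Pitx1 was listed at 0 in each.

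Peptides of the hypothalamus were described next to these. Avp, vasopressin, stood at 0.322, 5.395 and 0.143 FPKM in controls and 16.7, 7.43 and 27.3 in E (4.20 ± 1.48, adjusted p = 0.858). Oxt, oxytocin, stood at 0, 6.89 and 0 against 6.24, 5.715 and 8.42 FPKM (4.04 ± 1.39, adjusted p = 0.858). Control 2 held both peptides at levels near those of E while control 1 and 3 were near 0, and the groups overlapped for Oxt. Of 13 hypothalamic markers, with Avp and Oxt counted, 7 were higher and 6 lower, with a median of 0.07 (0.55 with 11 of 13 higher without control 2, -0.16 without control 1, -0.10 without control 3), and Hcrt, Pmch and Agrp were at or below 0.65 FPKM in all 6 libraries. The whole list summed to 305, 614 and 377.5 FPKM in controls and 376, 331 and 368 in E, with control 2 the highest. Avp, Oxt and Fn1 are among 10 hub genes that the study picked from these samples, so their direction is no independent evidence. All 10 were higher in E, 3 at an unadjusted p under 0.05, with a median of 0.36 (0.55 without control 2). Of the others, Nts, the peptide neurotensin, stood at 8.43, 9.97 and 7.27 against 11.9, 10.85 and 9.965 FPKM, P2ry1, a receptor for ADP, at 1.81, 1.84 and 1.63 against 2.43, 2.39 and 2.07, and Htr2c, a serotonin receptor, at 29.8, 41.02 and 32.7 against 40.2, 41.9 and 29.5. Log2 differences of Tacr3, Col1a1, Adra1d and Dcn were 0.48, 0.28, 0.22 and 0.16, each with an unadjusted p of at least 0.11.

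Sncg, the gamma form of synuclein, abundant in cholinergic and sensory neurons, was higher in every E library than in any library of the control group. It stood at 2.35, 3.41 and 1.73 FPKM in controls and 6.41, 5.39 and 4.597 in E (1.14 ± 0.24, adjusted p = 0.359), and averaged 1.61 ± 0.147 in F and 0.853 ± 0.152 in RE. E was above F (adjusted p = 0.0469) and RE (adjusted p = 0.00317). Ngfr, the low-affinity neurotrophin receptor found on basal forebrain cholinergic neurons, stood at 0.638, 2.59 and 0.586 against 2.88, 3.38 and 2.79 FPKM (1.49 ± 0.50), and RE was below E (adjusted p = 0.0422). Here too control 2 lay close to the E libraries. Gad2, a GABA-producing enzyme, stood at 64.3, 68.3 and 56.8 FPKM in controls and 84.75, 76.7 and 73.7 in E (0.31 ± 0.10, adjusted p = 0.858), and E was above F (adjusted p = 0.0373) and RE (adjusted p = 0.0125). Sncg, Ngfr and Gad2 were named for high E values against control, and the contrasts with F and RE share those E libraries. The adjusted p-values of these contrasts are therefore no independent support.

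Lists of neuronal genes had medians that moved with single libraries. Of 32 immediate early genes, which neurons switch on within minutes of activity, 15 were higher and 17 lower with a median of -0.03, and a single one had an unadjusted p under 0.05. This was Npas4, which rises with neuronal calcium entry, at 5.24, 3.675 and 6.15 FPKM in controls and 4.11, 1.97 and 1.88 in E (-0.96). Egr1 was at 85.5, 29.6 and 65.1 against 58.8, 64.99 and 40.2 FPKM, and control 2 was the lowest of the 6. The median of this list was -0.14 without control 2, 0.12 without control 1 and -0.20, with 4 of 32 higher, without the 4 libraries that stood apart. Markers of pyramidal neurons were lower in 12 of 16 cases, none at an unadjusted p under 0.05, with a median of -0.08 that ranged from -0.20 to -0.03 as single libraries were left out and was -0.17, with 2 of 16 higher, without the 4. Camk2a, the kinase of excitatory synapses, stood at 554, 526 and 593 against 431, 522 and 509.6 FPKM (-0.20 ± 0.11), without overlap. Dlg4, the scaffold PSD-95, stood at 261, 265 and 257 against 214, 233 and 223 FPKM (-0.22 ± 0.09), the only one of 15 genes of NMDA and AMPA receptors and their scaffolds at an unadjusted p under 0.05. Subunits of GABA-A receptors (9 of 15 higher, 1 of them at an unadjusted p under 0.05, median 0.05) had a median near that of all genes. Endocannabinoid genes had a median of -0.07, and 1 of 9 was higher, against 57.02% of all genes tested, with none at that p. Among receptors for dopamine, noradrenaline and serotonin 12 of 18 were higher, and Htr4 stood at 2.005, 1.48 and 1.47 against 2.32, 3.06 and 2.65 FPKM (0.67 ± 0.25).

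Of GABAergic markers 9 were higher and 9 lower. Sst, the peptide of an interneuron class, stood at 189, 182 and 202 FPKM in controls and 155, 146.5 and 155 in E (-0.33 ± 0.12), the opposite side from Gad2. Of 15 markers of the basolateral amygdala 9 were higher and 6 lower with a median of 0.05, or -0.10 without control 2. Etv1, a factor of deep-layer projection neurons, stood at 19.2, 22.8 and 25.03 against 17.3, 13.5 and 17.1 FPKM (-0.48 ± 0.18). The neighbouring central amygdala and the striatum rested on control 2. All 18 striatal markers were higher with a median of 0.70, which became 0.07 without control 2, 1.22 without control 1 and -0.03 without the 4 libraries, and the central amygdala median went from 0.26 to 0.01. Tac1, the precursor of substance P, stood at 58.2, 25.6 and 35.3 against 63.5, 75.7 and 72.4 FPKM (0.91 ± 0.35), and Pdyn, the precursor of dynorphin, at 20, 8.12 and 15.2 against 21.3, 27.7 and 20.7 (0.76 ± 0.28). Pax6, a factor of some amygdala interneurons, was lower at 8.94, 7.095 and 10.01 against 6.18, 5.46 and 4.875 FPKM (-0.64 ± 0.24). Boundaries of the dissection were not measured apart from these markers, and their part in the neuronal values was not tested.

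Glia showed small differences. Of 20 myelin genes 16 were higher with a median of 0.21 (0.35 without control 2, 0.12 without control 3) and none had an unadjusted p under 0.05, and Mbp was at 642, 715 and 586 against 676, 648 and 603 FPKM. Of 12 genes of oligodendrocyte precursors 11 were lower with a median of -0.16, a sign that turned to 0.02 without control 2. Astrocyte genes (9 of 16 higher, median 0.02) and microglial genes (6 of 16 higher, median -0.04) were close to the median of all genes. Sox9, a factor of astrocyte identity, was lower at 8.83, 10.5 and 8.397 against 7.203, 6.97 and 5.82 FPKM (-0.47 ± 0.17). Of 18 circadian clock genes 13 were higher, 2 at an unadjusted p under 0.05, with a median of 0.06 that was 0.008 with 9 higher without control 2 and -0.06 with 6 higher without the 4 libraries, and Dbp, which follows the clock closely, was at 43.25, 22.7 and 31.95 against 35.04, 44.45 and 38.4 FPKM.

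Lower genes were fewer and most had low levels. Coro2a, an actin-binding coronin, stood at 4.21, 6.325 and 4.94 FPKM in controls and 2.45, 2.101 and 2.86 in E (-1.02 ± 0.26, adjusted p = 0.5955), and F and RE averaged 5.59 ± 1.93 and 5.41 ± 1.01. Ccdc19, a coiled-coil protein of cilia, stood at 2.17, 2.91 and 2.04 against 0.725, 0.5103 and 1.08 FPKM (-1.54 ± 0.39). Control 2 was the highest of both genes. Clasrp, a splicing-related protein, was at 5.35, 3.06 and 3.235 FPKM in controls, near 0 in E 1 and E 2 and at 2.62 in E 3, so that its fold change rests on estimates near 0. The same holds for A930005H10Rik, a noncoding gene, at 3.06, 4.41 and 5.21 FPKM in controls and 0.855, near 0 and 0.793 in E. Gm11007 ranged widely in controls, at 4.84, 21.3 and 9.77 FPKM, against 1.16, 0.118 and 1.23 in E (-3.82 ± 1.08). The other named ones, Gm11744 (-1.29), Fhad1 (-1.05) and Rcvrn (-1.10), differed by little more than a halving. No lower gene of the 15 differed between E and F or between RE and E at an adjusted p under 0.05. Among the remaining higher genes of the naming rule, Ahnak, a giant scaffold protein of the membrane, stood at 6.545, 3.44 and 4.898 against 9.31, 9.75 and 10.2 FPKM (1.01 ± 0.19), Slfn5 at 0.701, 0.517 and 0.9085 against 1.72, 2.12 and 1.59 (1.26 ± 0.27), Tmem41a at 1.74, 1.275 and 1.18 against 4.003, 3.69 and 3.98 (1.43 ± 0.28) and Paqr5, a membrane progestin receptor, at 0.566, 0.3655 and 0.3104 against 1.06, 1.05 and 1.09 (1.21 ± 0.27).

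Promoters of the genes above were searched for 3 short motifs on both strands, in the 300 bases around the RefSeq start (GRCm38.p6, 250 before to 50 after). The motifs were ACANNNTGT, the spaced core of glucocorticoid receptor sites, ACGTG, the core bound by hypoxia-inducible factors, and the E-box CACGTG, which always contains ACGTG on both strands. ACANNNTGT was in 3 of 24 promoters of the glucocorticoid list (12.5%), 6.905% of all 27025 promoters and 3.94% of those of genes tested. ACGTG was in 9 of the 24 (37.5%), 10 of 15 of the hypoxia list (66.7%) and 25.48% of those of genes tested. Of 40 matched promoters among the 61 higher genes, 1 held ACANNNTGT and 5 held ACGTG. A gene can have further starts, and the window stands at 1 of them. Sgk1 and Hif3a had no match to any of the 3 in this window, which says only that these letters are not in it. Of several named genes with a match, 2 endothelial ones without overlap between the groups are shown as examples, picked after the matches were known, with windows that cover the start of the gene as the files give it. The match is in capitals, ACANNNTGT in Erg and CACGTG in Abcc4, and the windows lie at chr16:95586544-95586843 (-) and chr14:118706170-118706469 (-).
Erg: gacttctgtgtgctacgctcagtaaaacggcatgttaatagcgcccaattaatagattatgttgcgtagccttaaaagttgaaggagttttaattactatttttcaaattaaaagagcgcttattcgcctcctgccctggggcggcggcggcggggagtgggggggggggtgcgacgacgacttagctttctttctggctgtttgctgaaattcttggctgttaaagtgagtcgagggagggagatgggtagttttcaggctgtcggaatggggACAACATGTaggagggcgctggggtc
Abcc4: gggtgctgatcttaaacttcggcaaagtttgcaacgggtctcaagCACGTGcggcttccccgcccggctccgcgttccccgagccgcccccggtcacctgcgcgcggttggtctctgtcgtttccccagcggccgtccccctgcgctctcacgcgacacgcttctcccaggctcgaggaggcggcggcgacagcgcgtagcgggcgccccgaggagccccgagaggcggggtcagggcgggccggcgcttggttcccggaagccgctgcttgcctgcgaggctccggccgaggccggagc

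Among lncRNAs, which are often low in level, no transcript of 9408 tested passed an adjusted p under 0.05 by limma (0%, smallest 0.413), and 416 had an unadjusted p under 0.05. The study thresholds were met by 155 transcripts higher in E (1.65%) and 145 lower (1.54%), which became 113 and 171 with a shift to a common median. Estimates near 0 carried most of them. Adjusted calls numbered up to 6 as single libraries were left out (6 without E 2, 5 without control 3) and 30 without the 4 libraries that stood apart, and 29 of these 30 also had a library near 0. In 238 of the 300 at least 1 of the 6 libraries was under 0.01 FPKM, against 37.04% of all transcripts tested. By position, 66 higher and 65 lower transcripts were intergenic (of 4239 tested), 43 and 35 overlapped an exon in sense (of 2005), 19 and 9 were antisense to a gene (of 1418) and 9 and 21 shared a promoter region in the opposite direction (of 878).

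The higher side was led by 3 intergenic or intronic transcripts with a signal in every library. AK009640, an intergenic RNA of 451 nt at chr1:95830765-95831213 (-), stood at 1.03, 0.478 and 0.619 FPKM in controls and 1.76, 2.365 and 2.63 in E (1.58 ± 0.30, adjusted p = 0.6385), and averaged 0.776 ± 0.0938 in RE. AK088937 lies in sense within an intron of Ccnd3, the gene of cyclin D3, on chr17 (+). It stood at 0.373, 0.261 and 0.208 against 0.793, 0.775 and 1.12 FPKM (1.39 ± 0.27), while Ccnd3 itself differed by -0.11 ± 0.20. AK018095, of 1422 nt at chr13:114953100-114955732 (-), stood at 0.689, 0.663 and 0.931 against 1.83, 2.29 and 1.57 FPKM (1.21 ± 0.24). None of these overlapped between the groups, and the F means (2.06 ± 0.616, 1.01 ± 0.1605 and 1.22 ± 0.227 FPKM) were above every control library too. The other higher ones were splice forms at Tsc22d2, Mpzl1 and Npr1, with 1 or more libraries near 0 in each. In these the controls reached at most 0.232 FPKM and the E libraries ranged from 0.3001 to 2.02 FPKM. The mRNA of the gene differed by -0.12, -0.10 and 0.20 on the log2 scale. The Mpzl1 form was under 0.01 FPKM in every control and RE library and in F 1 and F 2, and at 0.41 in F 3. It reached the filter, a mean of 0.1 FPKM over the 12 libraries, only through the E libraries. Its higher level in E is therefore no support for a difference.

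The lower lncRNAs were mostly forms that were absent or nearly so from E. A noncoding form of Ndufs6, a subunit of respiratory complex I (NR_033306, 587 nt, chr13), stood at 4.71, 4.43 and 5.83 FPKM in controls and under 0.01 FPKM in each E library, and at 1.36 ± 1.19 FPKM in RE. The Ndufs6 gene as a whole was at 50.9 ± 5.51 FPKM in controls and 59.05 ± 2.95 in E. A noncoding form of Nt5c2, a cytosolic nucleotidase (NR_028353, chr19), stood at 3.21, 4.84 and 2.304 against 0.569, 1.015 and 1.45 FPKM (-1.69 ± 0.36, adjusted p = 0.838), and the gene was at 14.8 ± 1.504 and 16.9 ± 1.04. In both genes the noncoding form was lower in E while the gene level was higher by 0.22 ± 0.10 and 0.20 ± 0.11 on the log2 scale, and the division of reads among the forms of a gene was not tested. The intergenic XLOC_021493 (477 nt, chr7:36954062-36956214) was at 0.944, 0.434 and 0.376 FPKM in controls and listed at 0 in every E library. XLOC_018532 on chr5 and a transcript of Trmt61b on chr17 were likewise under 0.01 FPKM in E, with controls at 2.39, 1.02 and 2.303 and 0.619, 1.79 and 1.103 FPKM. The Trmt61b transcript was also under 0.01 FPKM in every RE library and in F 2 and F 3, and at 0.81 in F 1. It reached the filter, a mean of 0.1 FPKM over the 12 libraries, only through the control libraries. Its lower level in E is therefore no support for a difference. A short form of Plekhf2 stood at 3.44, 1.95 and 1.24 against 0.895, 0.742 and 0.442 FPKM (-1.47 ± 0.34).

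Circular RNAs arise when the end of an exon is spliced back to its own start or that of an earlier exon, and are counted by reads that cross this junction. Of 3241 circRNAs tested none passed an adjusted p under 0.05 (0%) in edgeR's quasi-likelihood test, with a smallest adjusted p of 0.942, and DESeq2 also called 0. At an unadjusted p under 0.05 there were 154. The study thresholds were met by 40 higher in E (1.23%) and 112 lower (3.46%). The split depended on the scaling, since RLE factors gave 61 and 83 and moved the median log2 fold change of all circRNAs from -0.25 to -0.10, a shift of 0.15. Without E 2 the counts were 23 and 70. Junction reads were 1133 ± 209 per 1000000 estimated mRNA fragments in the control group and 1014 ± 124 in the E group (SD, n = 3, exact permutation test, two-sided p = 0.5, smallest possible 0.1). Counts per circle were small, with a median of 11 reads over the 6 libraries, and 913 circles were seen in all 6. Those seen in every control library and in no E library numbered 59, against 7 the other way round, and the control group held 54181 junction reads in all against 37795 in E. Exonic circles made up 2915 of those tested, with 31 higher and 103 lower.

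Of the circRNAs taken by the naming rule, 4 higher and 6 lower ones are shown by their back-splice junctions, since the junction is what tells the circle from the linear RNA. Each line gives 40 bases in the 5′ to 3′ direction, the last 20 of the circle in lower case and the first 20 in capitals, read from GRCm38 at the ends that the table gives.
Pak7, chr2:136116177-136116962 (-): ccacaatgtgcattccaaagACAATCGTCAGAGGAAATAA
Trpc1, chr9:95716083-95743351 (-): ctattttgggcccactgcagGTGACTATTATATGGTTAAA
Upf2, chr2:5982992-6010428 (+): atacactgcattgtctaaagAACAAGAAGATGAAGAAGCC
Zcchc8, chr5:123707269-123717058 (-): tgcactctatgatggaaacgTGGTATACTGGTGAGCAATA
Tbcel, chr9:42437115-42451762 (-): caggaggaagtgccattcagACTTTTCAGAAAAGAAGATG
Ntng2, chr2:29227578-29248878 (-): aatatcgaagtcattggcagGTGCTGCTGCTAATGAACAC
Ksr2, chr5:117500713-117505639 (+): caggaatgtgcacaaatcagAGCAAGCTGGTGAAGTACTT
Cntn5, chr9:9743575-9781791 (-): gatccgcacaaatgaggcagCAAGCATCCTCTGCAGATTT
intergenic, chr12:109718114-109718499 (+): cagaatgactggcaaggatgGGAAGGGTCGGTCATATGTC
Pspc1, chr14:56748835-56772006 (-): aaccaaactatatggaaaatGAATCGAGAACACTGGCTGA

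In the genome these 10 circles are flanked by the splice signals AG before their first base and GT after their last, as were all 2915 exonic circles tested. The circle of Pak7, a kinase of neuronal cytoskeleton, had 7, 2 and 1 junction reads in controls and 6, 12 and 12 in E, or 299, 116 and 74.1 against 819, 651 and 997 per 1000000 junction reads (log2 fold change 1.98 ± 0.65, SE, unadjusted p = 0.00217). Reads of Trpc1, a calcium channel, were 2, 1 and 1 against 2, 6 and 7 (2.19 ± 0.97), and those of Upf2, of nonsense-mediated decay, 1, 2 and 1 against 3, 10 and 3 (2.19 ± 0.98). Relative to all junction reads, every E library was above every control library for these 4 higher circles, and each rests on at most 12 reads in any library. No lower circle passed 16 reads in any library. Ksr2, a scaffold of the MAP kinase cascade, had 14, 7 and 16 reads in controls and 2, 0 and 4 in E (-2.15 ± 0.72, unadjusted p = 0.00307). Pspc1, a protein of nuclear paraspeckles, had 12, 7 and 15 against 2, 2 and 2 (-2.08 ± 0.76). Tbcel, a tubulin-binding protein, had 3, 12 and 3 reads in controls and none in any E library, at least 4.19-fold lower against a floor of 3 reads over the E group (2.05-fold without control 2, which held 12 of the 18 reads). Cntn5, a neuronal adhesion molecule, had 9, 5 and 2 against none (at least 3.72-fold lower, 2.87-fold without control 1). It also had 0 reads in every F library and 1 in each RE library. The Cntn5 circle thus reached the filter of 10 junction reads only through the controls, so its lower count in E is no support for a difference. The bounds of Tbcel and Cntn5 take the control rate as exact. They cover the counting error of the E reads only, not that of the control reads or the spread between mice. Ntng2, a netrin relative of the axon surface, had 11, 6 and 2 against 0, 0 and 1 (-3.41 ± 1.10), and the intergenic circle on chromosome 12 had 6, 8 and 7 against 0, 0 and 2 (-2.82 ± 1.02).

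The linear mRNA of the host genes did not share these differences. For the 9 of these circles with a host its log2 fold change lay between -0.14 (Ntng2) and 0.23 (Tbcel), and no host had an unadjusted p under 0.05. Pak7 mRNA was at 12.3 ± 0.90 FPKM in controls and 13.2 ± 2.40 in E, and Ksr2 mRNA at 15.3 ± 0.77 and 14.6 ± 0.90. Of the 143 circles past the study thresholds whose host was tested, 4 had a host with an unadjusted p under 0.05, beside 693 of all 13517 genes tested. The circles were picked by their own p and fold change on few reads and the hosts were not. The count is therefore not read as a result about the hosts. Over 3120 circles with a tested host the median log2 fold change was -0.26 for the circle and 0.04 for the host mRNA, values that share the scaling described above.

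**Figure D4:**
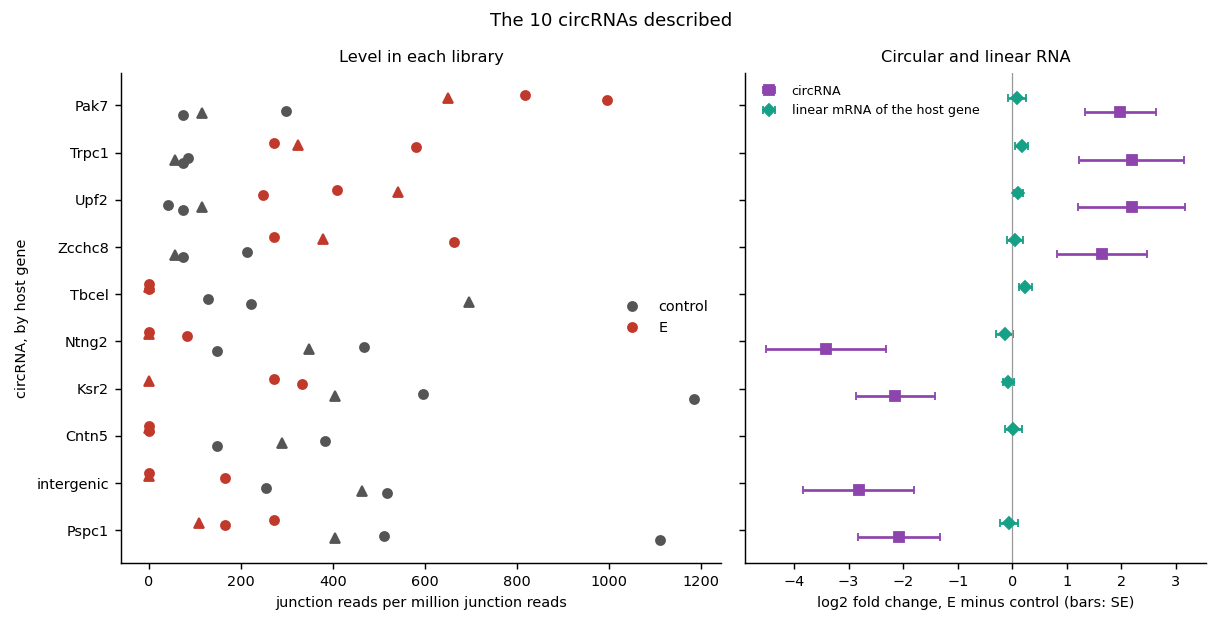
The 10 circRNAs described, with junction reads per 1000000 junction reads in each control and E library (left, triangles for control 2 and E 2) and the log2 fold change ± SE of circle and host mRNA (right, E minus control). No circular fold change is drawn for Tbcel and Cntn5, whose E libraries all had 0 reads, and the intergenic circle has no host. Host mRNAs all lie between -0.14 and 0.23.

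The circles with the most reads were described by their level. The circle antisense to Cdr1 (chrX:61183248-61186174) had 851, 561 and 474 reads in controls and 243, 789 and 497 in E, and differed by 0.04 ± 0.21. The one in an intron of Tulp4 had 628, 340 and 284 against 190, 443 and 312 reads (0.00 ± 0.23). Among the 10 with the most reads the log2 fold change ran from -0.40 ± 0.27 (Ankib1) to 0.42 ± 0.28 (Strbp), and none had an unadjusted p under 0.05. Of these, Strbp (5417, 3596 and 4372 against 6144, 6508 and 7313 per 1000000 junction reads) and Ssbp2 (3753, 4466 and 3631 against 5052, 5586 and 4654) did not overlap between the groups.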

How the data were processed

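RNA of 6 libraries (control 1 to 3, E 1 to 3) was compared, with F and RE sharing the estimate of spread. The authors trimmed reads with cutadapt, aligned them with HISAT2 to mm10 and deposited, per gene and per lncRNA transcript, FPKM values and expected counts of fragments from cuffdiff. They deposited counts of back-splice junction reads from STAR and DCC per circRNA, with log CPM columns not used here. The submitters' notes also list CASAVA 1.8, BWA and hg19. Gene IDs and positions fitted GRCm38, since 13383 of 13517 gene IDs (99.01%) were in GENCODE M21 and 13382 of these overlapped. The authors' comparison columns (fold changes and p-values) were not used, and microRNAs were not analysed here.

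FPKM were tested as log2(FPKM + 0.1) by limma 3.58.1 in R 4.3.3, with 1 coefficient per group over all 12 libraries, for the 13517 of 22564 genes whose mean over the 12 libraries reached 0.5 FPKM and the 9408 of 31549 lncRNAs whose mean reached 0.1 FPKM. A fold change on this scale understates that of low genes. circRNAs with at least 10 junction reads over the 12 libraries (3241 of 13957) were tested with edgeR 4.0.16 (quasi-likelihood), and DESeq2 1.42.0 was an alternative. p-values were adjusted by Benjamini-Hochberg. edgeR was also run on estimated mRNA fragments. The deposited counts are scaled, so the value of 1 fragment was estimated for each library from the counts themselves. Counts were divided by it, and 89.7 to 91.1% of the nonzero ones were then whole within 0.05. They were rounded to whole numbers. The mRNA fragment totals, and rates of junction reads over them, rest on these estimates. With each library from 1 mouse, p-values measure the spread between these mice. The tests were tried on simulated data first. Tables were made with Python 3.11.15, numpy 2.4.6 and pandas 2.3.3.

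Members and lists were chosen with earlier results of these data known. Genes were named by rule: among those past the study thresholds and without overlap of E and control, at a group mean of 1 FPKM or more, the 12 higher and 8 lower of smallest p. For lncRNAs the rule took 6 each way, with at least 0.5 FPKM and 200 nt, and for circRNAs 6 each way, with at least 5 junction reads, of which 5 higher ones qualified, 1 of them not reported here. From each list it took up to 4 members of smallest p with p under 0.05 and no overlap, otherwise the 2 of highest level, and the hub genes of the study. Other members named were chosen after their values were seen. Settings tried were other scalings, filters, pseudocounts, tools, a replicate block, the 8 other libraries, a term for the 4 and each library left out.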

Additional observations from a re-analysis of the deposited data

How the results depend on the processing

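For mRNA the counts at an adjusted p under 0.05, higher and lower at the study thresholds (0, 61 and 15) were 5, 51 and 21 with edgeR on fragments, 1, 53 and 23 with a median shift, 1, 54 and 37 with quantiles, 2, 131 and 55 without a filter, 0, 16 and 5 with a pseudocount of 1, 0, 39 and 10 at a minimum of 1 FPKM, 2, 61 and 16 with robust spread, 2, 65 and 25 with a term for the 4 libraries, 0, 77 and 29 among the other 8 libraries, and 0, 59 and 24 with the 2 groups alone. Leaving out single libraries gave 0 to 2, 69 to 118 and 20 to 49. For lncRNA (0, 155 and 145) they were 1, 124 and 115 with the 2 groups alone, 0, 21 and 19 at a minimum of 1 FPKM, 11, 170 and 168 without a filter, 0, 23 and 24 with a pseudocount of 1, and 30, 197 and 171 among the other 8. Single libraries left out gave 0 to 6, 151 to 178 and 122 to 190. For circRNA (0, 40 and 112) they were 0, 26 and 20 with DESeq2, 0, 61 and 83 with RLE factors, 0, 24 and 21 at 30 junction reads, and 0, 18 and 131 among the other 8. Single libraries left out gave 0, 23 to 52 and 70 to 121. The cause of these moves was not tested, apart from the number of features kept by a filter.

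Replicate numbers are shared by the labels but pair nothing else. Deviations of same-numbered libraries correlated at -0.011, 0.155 and 0.00016 over mRNAs, at 0.061 to 0.183 over lncRNAs and at 0.027 to 0.084 over circRNAs, and over mRNAs E 1 correlated best with control 3 (0.173). With the number as a replicate block the counts were 0, 60 and 20 for mRNA, 1, 160 and 141 for lncRNA and 0, 19 and 52 for circRNA.

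None of the 81 named features with an unadjusted p under 0.05 changed sign under any setting that could be fitted. The naming rule took features for that p and for groups without overlap, so leaving out libraries could hardly turn their sign. The kept signs are therefore no support. Of the 31 others 17 changed sign, among them Egr1 and Vegfa. Over the settings 79 values were no longer past that threshold and 18 newly past it. A count test of lncRNA was not run, since only 70.1 to 73.5% of their estimated counts were whole. Depth limits the circRNAs, at a median of 11 reads over 6 libraries.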
